A study of Mus musculus with 10 samples.

Results

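The 87 cytosolic ribosomal protein genes of the table were taken by symbol from 13809 genes. A gene was a member when its symbol begins with Rpl or Rps and a digit, or is Rpsa, Rplp0, Rplp1 or Rplp2. The 7 symbols ending in "-ps" (pseudogenes) and the 8 Rps6k kinases were left out. Of the members, 43 encode proteins of the large subunit, 3 its stalk and 31 the small subunit, which gives 77 structural genes. The other 10 are paralogs, retrocopies and Rps19bp1, a nucleolar protein that binds Rps19 and carries the symbol without being part of the ribosome. All 87 passed the filter on low values, so no member dropped out.

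RNA sequencing compared macrophages of 2 origins, both taken from marrow of 12-week-old C57BL/6 mice. Resident macrophages, labelled CD163+, were the ferromagnetic cells that a magnetic column held back without any antibody stain. Bone marrow derived macrophages (BMDM), labelled CD163-, were grown from the cells that ran through the column. Their culture medium held 20% L929 supernatant, which supplies Csf1. The culture lasted 6 days according to the protocol text and 7 according to the sample titles. Each origin was left untreated or given LPS, the endotoxin of Gram-negative bacteria, which is sensed by Tlr4, at 1 µg/ml for 4 h. There were 3 untreated and 3 LPS-treated resident libraries, and 2 untreated and 2 LPS-treated BMDM libraries. Culture and origin go together in this design and cannot be told apart. Whether replicates came from different mice or cultures is not stated in the labels. The p-values reflect the spread between these libraries, part of which may be technical. Y-linked transcripts, held by replicate 1 of each resident group only, show that the resident libraries did not all come from the same mice. The labels name no genetic change in any group.

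The cytosolic ribosome has a small subunit, which reads the messenger RNA, and a large subunit, which joins amino acids and passes the new chain through an exit tunnel. Its proteins are needed in equal amounts, and their messengers share a short pyrimidine run at the first transcribed base, the terminal oligopyrimidine (TOP) motif. Through this motif the kinase mTORC1 and the RNA-binding protein Larp1 set how well the messengers are translated. Macrophages that meet LPS turn on a large set of inflammatory messengers and rely on the same ribosomes to translate them.

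Windows around the annotated starts show what the members share in sequence and how the copies differ. RefSeq promoter entries (GRCm38.p6) matched 66 of the 87 members. Each window below runs 5′ to 3′ from 15 bases before the annotated start to 14 after it, and capitals mark a pyrimidine run of at least 5 bases that begins with C within 5 bases of that start. The paralog pairs are shown so that the copies can be compared, Rpl24, Rpl27 and Rpl15 because they were called higher with LPS in BMDM on the deposited scale, and Rpl41, Rpl31, Rps9 and Rps3a1 as abundant members of each subunit per kb. Rps14, Rplp1, Rpl7 and Rps4l have no window here, and that of Rpl7l1, which holds no such run, is not shown. Rpl22 and Rps27l each have a further annotated start that is not shown and holds no such run.
Rps27 (chr3:90213634-90213663, minus strand): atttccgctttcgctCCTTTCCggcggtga
Rps27l (chr9:66946071-66946100, plus strand): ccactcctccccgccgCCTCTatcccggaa
Rpl36a (chrX:134585639-134585668, plus strand): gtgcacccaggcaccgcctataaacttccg
Rpl36al (chr12:69184053-69184082, minus strand): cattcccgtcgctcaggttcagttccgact
Rpl22 (chr4:152324421-152324450, plus strand): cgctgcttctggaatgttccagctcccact
Rpl22l1 (chr3:28805493-28805522, plus strand): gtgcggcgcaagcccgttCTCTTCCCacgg
Rpl39 (chrX:37085208-37085237, minus strand): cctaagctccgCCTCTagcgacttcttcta
Rpl39l (chr16:10170213-10170242, plus strand): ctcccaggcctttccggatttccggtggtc
Rps4x (chrX:102189377-102189406, minus strand): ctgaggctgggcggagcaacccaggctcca
Rpl24 (chr16:55966260-55966289, plus strand): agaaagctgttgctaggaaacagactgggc
Rpl27 (chr11:101442230-101442259, plus strand): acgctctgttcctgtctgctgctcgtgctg
Rpl15 (chr14:18270972-18271001, minus strand): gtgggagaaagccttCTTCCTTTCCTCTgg
Rpl41 (chr10:128549154-128549183, minus strand): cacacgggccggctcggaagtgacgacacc
Rpl31 (chr1:39367836-39367865, plus strand): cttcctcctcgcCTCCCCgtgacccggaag
Rps9 (chr7:3704026-3704055, plus strand): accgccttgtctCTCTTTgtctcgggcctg
Rps3a1 (chr3:86142654-86142683, minus strand): ttaaagccggaagggcgaaagagcaagggt

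A C at the annotated start followed by 4 pyrimidines stood at 13 of 67 starts of structural genes (19.4%), against 2.33% of 13247 starts of the other genes in the table. When the run could begin within 5 bases of the start, 43.3% of the starts held it, against 19.7% of the others. TCT with its C at the start was found at 8 of 67 starts (11.9%) against 1.22%. Only the transcribed strand was searched, and the 3 motifs overlap each other. Rps27 and Rpl15 hold the run exactly at the start, the Rps27l start shown has it 1 base later, and Rpl24, Rpl27 and Rpl36a have none in this window. An absent match says only that these letters are not in the window as annotated.

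The 10 libraries held 27.1 to 37.7 M reads, recovered from the deposited values, which are gene counts divided by 1 factor per library. Values below are these normalized reads. Replicate 1 of each resident group held Y-linked transcripts at a summed value of 3374 and 3965, while all other libraries listed the 4 Y-linked genes at the floor of 1 each. The X-linked transcript Xist read 1651 and 2172 in these libraries and 7873 to 13871 in the others. Results were therefore also computed without replicate 1 of both resident groups, and in a fit with a term for the Y-linked transcripts. Many members have near-identical copies in the genome: of 77 structural genes, 47 share over 50% of their 50-base words with transcripts of other genes. How reads that fit several copies were counted is not given in the sources used here, so the level of a member may include reads of its copies.

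The retained cells were labelled as macrophages, and markers of other marrow cells came with them. All 14 neutrophil markers were higher in untreated resident cells than in untreated BMDM, and they took 0.758 to 1.57% of the resident values against 0.00773 to 0.00774% in BMDM. With LPS these ranges were 1.22 to 1.44% and 0.00865 to 0.00919%. All 14 erythroid, 11 of 12 B lineage, 9 of 9 progenitor and 9 of 10 megakaryocyte markers were higher as well. Of all genes tested, 39.2% were called higher and 32.6% lower in untreated resident cells. B lineage markers differed less in share, at 0.0181 to 0.0382% of untreated resident values and 0.0118 to 0.0122% of untreated BMDM values. Erythroid markers took 0.121 to 0.190% of untreated resident values and 0.00454 to 0.00555% of untreated BMDM values. Ly6g, Hbb-bt, Slc4a1, Car1, Igll1, Rag1, Rag2, Mecom and Erg were listed at the floor in every BMDM library. Of the macrophage markers, Cd163, the scavenger receptor used in the labels, was 7.21 ± 0.27 (log2) higher in untreated resident cells, and Csf1r, the growth factor receptor of macrophages, was lower at −1.82 ± 0.15. The 11 macrophage markers split into 5 higher and 5 lower, and took 0.811 to 1.09% of untreated resident and 2.03 to 2.21% of untreated BMDM values. In such bulk samples fewer cells of a type and less RNA per cell cannot be told apart. The part of other cells in the differences between origins below was not tested.

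Members took between 2.53 and 4.01% of all values in a library. Their share was 3.00, 3.32 and 3.12% in untreated resident libraries and 3.01, 2.86 and 2.53% in resident libraries with LPS. It was 4.01 and 3.87% in untreated BMDM and 2.76 and 2.70% in BMDM with LPS. Untreated BMDM stood above every other library, and the resident groups overlapped. The mean share was 3.15% ± 0.17 (SD, n = 3), 2.80% ± 0.24 (n = 3), 3.94% ± 0.10 (n = 2) and 2.73% ± 0.04 (n = 2) in that order. The ribosomal RNA precursor Rn45s also enters the totals, and without it the untreated BMDM share was 4.04% ± 0.03. Rn45s took 4.70% of the values in untreated BMDM replicate 2 but 0.232% in replicate 1. In the other groups it took 0.151 to 1.34%.

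The summed normalized reads of the members varied less between the BMDM groups than the share. The sum was 927, 921 and 828 k (k, 1000) in untreated resident libraries and 974, 856 and 770 k with LPS. BMDM gave 991 and 1004 k untreated and 1069 and 1042 k with LPS. All values of a BMDM library together summed to 24.7 and 26.0 M untreated and to 38.8 and 38.6 M with LPS. The share in BMDM was thus lower with LPS, while the sum of the members was not. The scaling decides the sign for the family in BMDM: the median member changed by 0.07 on the deposited scale and by −0.54 when libraries were scaled to equal totals, which moved the median of all genes by −0.59. Relative to the median of all genes, the median member was 0.11 higher on the deposited scale, 0.10 higher with equal totals and at −0.53 with quantile normalization. Equal totals moved the median of all genes by −0.12 for LPS in resident cells, by −0.16 between untreated origins, by 0.32 between LPS-treated origins and by −0.47 for the difference of responses.

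**Figure D1:**
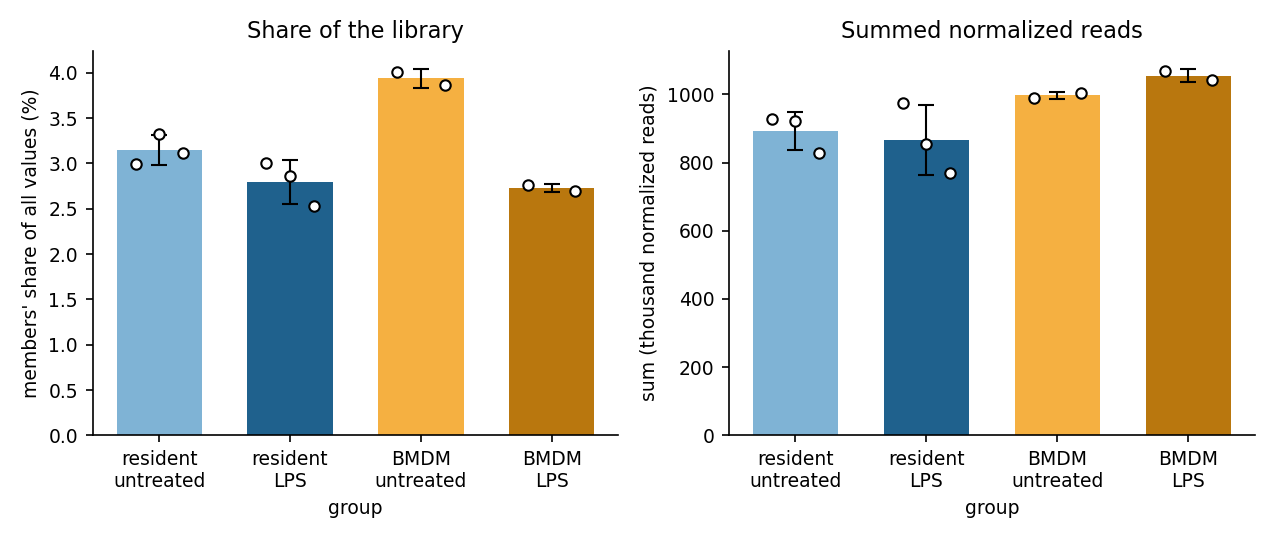
Left, share of all values in a library taken by the 87 members (%); right, their sum in 1000 normalized reads, by group. Bars are means, error bars SD and points single libraries; the share in BMDM goes from 3.94% to 2.73% with LPS, while the BMDM sums lie between 991 and 1069 k.

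The proportion of the subunits varied little. Large-subunit genes, stalk included, summed to 1.32 to 1.36 times the small-subunit genes in all 10 libraries. In each library the structural genes had a median deviation from each gene's own mean between −0.27 and 0.20 (log2). The ratio of the highest to the lowest library had a median of 1.46 over the 77 structural genes and ranged from 1.16 for Rpl4 to 2.23 for Rpl39. It stayed under 1.5 for 45 genes and passed 2 for 4, namely Rpl39, Rpl31, Rps27a and Rpl36a. Rpl4, a large-subunit protein with an arm in the exit tunnel, read 25299, 24359.5 and 23029 in untreated resident cells, 26080.5, 24259.9 and 23069 with LPS, 22503 and 23568 in untreated BMDM and 23927 and 23926 with LPS. The resident ranges overlapped each other and both BMDM groups, and the 2 BMDM groups were apart from each other.

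**Figure D2:**
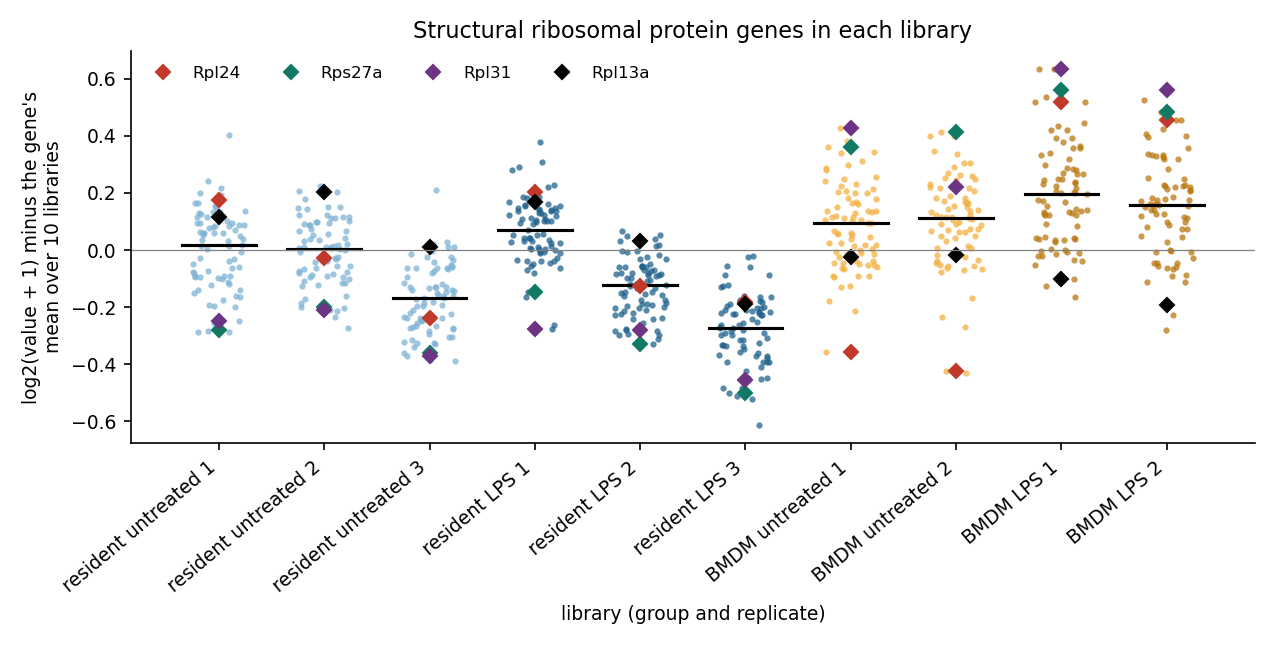
Each point is 1 of the 77 structural genes in 1 library, as log2(value + 1) minus its mean over the 10 libraries; black bars are library medians and diamonds mark 4 named genes. Medians lie between −0.27 and 0.20, Rpl24 is among the lowest members in untreated BMDM, and Rpl31 and Rps27a lie low in resident and high in BMDM libraries.

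Per kilobase of transcript, levels spanned a wide range within the family. They depend on the length of the single transcript taken for each gene. For Rps20 that transcript had 3706 bases, which gave 3008 reads per kb at a mean value of 11147. Rplp1, an acidic stalk protein that helps recruit elongation factors, was the highest at 44551 reads per kb (mean of 10 libraries), followed by Rps14, Rps9, Rpl41 and Rpl31 between 32497 and 29875. Rpl30 was the lowest structural gene at 1114. Of the words of Rpl30, 47.8% also occur in transcripts of other genes. Rpl32l and Rpl39l, a processed pseudogene and a paralog of Rpl39, read between 7 and 17 and between 1 and 20 normalized reads, which is too few for a comparison.

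In resident cells no member was called changed with LPS. Of 87 members, 0 were called in either direction at an adjusted p under 0.05 (limma on log2(value + 1), Benjamini-Hochberg over all genes), while 7.36% of all 13755 genes tested were called higher and 5.57% lower (12.9% in either direction). At an unadjusted p under 0.05 there was 1 member. The median member changed by −0.06 and the median gene by 0.00, and 64 of 87 members had a negative estimate. Without resident LPS replicate 3 that median was 0.037. All 77 structural genes stayed within ±0.5 log2, as did 91.0% of 5881 other genes above a floor. The floor was the 5th percentile of the members' mean log2 level (661 normalized reads), and genes at it were included. It sets no upper limit, so these genes are not matched to the members in level. Under equal library totals 7 members were called lower and 0 higher, and under quantile normalization 11 and 0. The median of all genes was −0.12 and −0.02 there. Here and below, counts of members under other settings come without the share of all genes called, unless it is printed beside them. Such a count alone is no result about the members. With the term for Y-linked transcripts 2 members were called lower. Among the largest estimates was Rplp1, which read 24498, 21929 and 18162 untreated and 23412, 17827 and 14275 with LPS, and its groups overlapped (−0.24 ± 0.17, adjusted p = 0.427). At each replicate number its LPS library read below the untreated one, but the labels pair no libraries and the fit used no pairs. Rps19bp1 gave −0.25 ± 0.14, adjusted p = 0.297, and was not called. Only 1 of 87 members did not overlap between the groups, against 27.1% of all genes tested.

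LPS in BMDM raised 5 members and lowered 0 on the deposited scale, where 28.3% of all genes were called higher and 29.5% lower (57.8% in either direction). The median member changed by 0.07 and the median gene by −0.04. Rpl24, a large-subunit protein that joins late and bridges to the small subunit, read 9285 and 8877 untreated and 17035 and 16329 with LPS. Both LPS-treated libraries lay far above both untreated ones. The means were 9081 ± 288 and 16682 ± 499 (SD, n = 2 each), and the log2 change was 0.88 ± 0.15, adjusted p = 0.000637. Under every scaling tried it was positive, at 0.27 with equal totals (adjusted p = 0.0476) and 0.01 with quantile normalization (adjusted p = 0.958). It was not called with equal totals computed without Rn45s (0.23, adjusted p = 0.0683) or without the members (0.25, adjusted p = 0.0635). In resident cells Rpl24 read 13451, 11682 and 10103 untreated and 13683, 10895 and 10494 with LPS, and these groups overlapped.

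The other 4 members called in BMDM changed by less, of which 3 follow. Rpl27, a large-subunit protein, read 8182 and 7096 untreated and 10377 and 9686 with LPS (0.40 ± 0.11, adjusted p = 0.0100). Rpl15, a core protein of the large subunit, read 10880.5 and 11256 and 13334 and 13495 (0.28 ± 0.11, adjusted p = 0.0438). Rpl22l1, the RNA-binding paralog of Rpl22, read 1819.5 and 2141 and 2468 and 2437 (0.31 ± 0.11, adjusted p = 0.0297). In each the LPS libraries lay above the untreated ones. These 3 turn negative with equal library totals and with quantile normalization, where 81 and 76 members were called lower and 1 and 0 higher. The median of all genes was itself −0.64 and −0.21 there. Relative to it the median member stood at 0.10 and −0.53. The shares of all genes called under these settings and in the fits that follow are not given, so these counts alone are no result about the members. A fit of only the BMDM libraries called 26 members higher and 4 lower, and the fit with the term for Y-linked transcripts 11 and 1. Without BMDM LPS replicate 1 a single member was called higher, without BMDM LPS replicate 2 or BMDM untreated replicate 2 there were 2, without BMDM untreated replicate 1 or resident LPS replicate 2 there were 3, and without resident untreated replicate 3 or resident LPS replicate 1 or 3 there were 8.

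Structural members spanned a narrower range with LPS in BMDM than the other genes at or above the floor of 661 normalized reads. That floor does not match the 2 sets in level. Of the 77, 76 stayed within ±0.5 log2, against 49.3% of the 5881 other genes, and 5.19% of them were called against 66.3%. The middle 90% of structural genes lay between −0.13 and 0.30, and that of the other genes between −1.29 and 3.19. The 2 BMDM groups did not overlap for 61 of 87 members, against 84.4% of all genes tested.

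**Figure D3:**
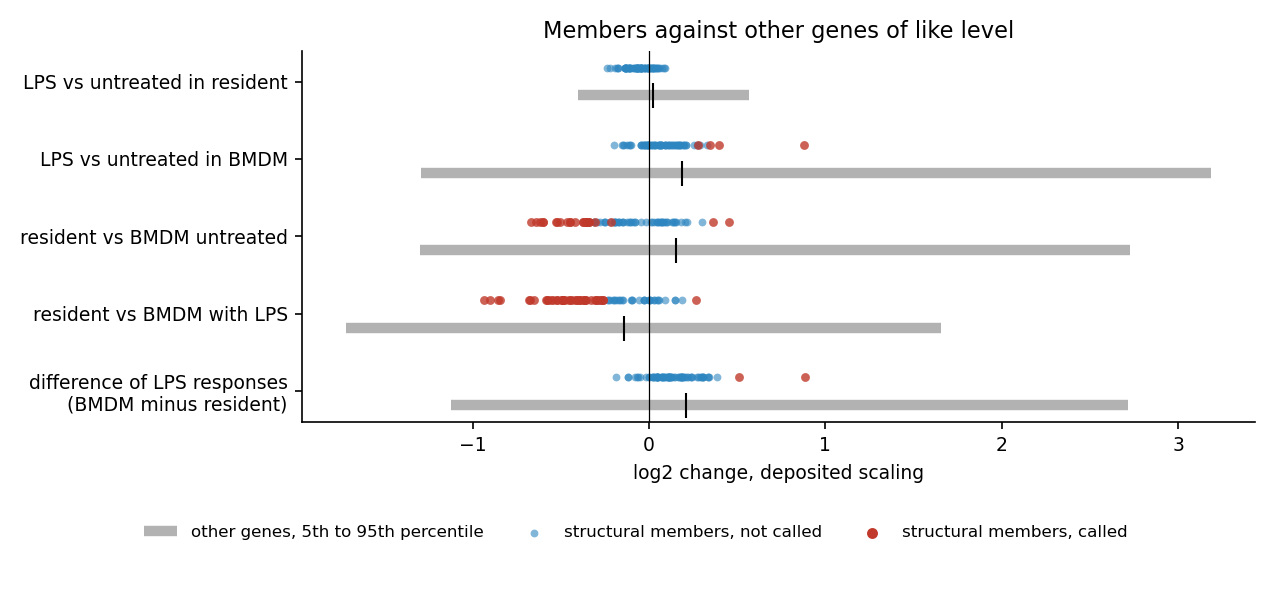
Log2 changes of the 77 structural genes (points, red where called at an adjusted p under 0.05) above the 5th to 95th percentile of 5881 other genes (grey bars, tick at the median), for each of the 5 comparisons on the deposited scale. The other genes are those at or above 661 normalized reads. Like level in the title means this floor only. In BMDM with LPS the members span −0.20 to 0.88, with Rpl24 farthest to the right, and turn mostly negative with equal totals (median −0.54), and the grey bar runs from −1.29 to 3.19.

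The change with LPS differed between origins for 2 members by the interaction term, against 22.8% of all genes with a higher and 19% with a lower change in BMDM (41.8% in either direction). Rpl24 differed by 0.88 ± 0.20, adjusted p = 0.00486 (log2, BMDM minus resident), and Rpl27 by 0.51 ± 0.14, adjusted p = 0.0151. Under equal totals Rpl24 kept a difference of 0.40 (adjusted p = 0.0358), while that of Rpl27 was 0.02 and turned to −0.18 under quantile normalization. The median member differed by 0.12 and the median gene by −0.02. The median of members turned to −0.37 under equal totals, where 1 member was called higher and 42 lower, and the median of all genes was −0.48. Without the first replicate of both resident groups 13 members were called higher. The fit with the term for Y-linked transcripts called 7 higher. Without resident LPS replicate 1 there were 11, without resident untreated replicate 3 there were 6, and without BMDM untreated replicate 2 or BMDM LPS replicate 1 only Rpl24 remained called of the pair, with 1 member in all. Relative to the median member of each library, which does not depend on the scaling factor, Rpl24 differed by 0.85 ± 0.15, adjusted p = 0.00132 and Rpl27 by 0.47 ± 0.15, adjusted p = 0.0330, where 18.3% of all genes were called higher and 14.3% lower (32.6% in either direction).

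Between the untreated origins, 24 of 87 members were lower in resident cells and 4 higher, against 32.6% and 39.2% of all genes (71.9% in either direction). Both are smaller shares than those of all genes. For the members, the median was −0.15 (log2, resident minus BMDM), and −0.071 without resident untreated replicate 3, while the median gene was 0.08. Rps27a, which is made as a fusion with ubiquitin, read 9261, 9787 and 8758 in resident and 14445 and 14962 in BMDM libraries. Its groups did not overlap (−0.67 ± 0.11, adjusted p = 0.000264). Rpl12, a protein at the base of the stalk, read 10639.6, 11241 and 10340.0 and 16392 and 17083 (−0.64 ± 0.09, adjusted p = 0.000134). Rpl36a, near the exit site for transfer RNA, read 3613, 4179.6 and 3518 and 5744 and 5801 (−0.62 ± 0.10, adjusted p = 0.000252). Rpl39, a small protein that lines the exit tunnel, read 5157, 5591 and 4849 and 7982 and 7774 (−0.60 ± 0.11, adjusted p = 0.000572). The largest fall, −0.70, was that of the paralog Rps27l. In all of these the resident libraries lay below the BMDM libraries. Untreated resident and BMDM libraries did not overlap for 58 of 87 members, against 82.7% of all genes tested.

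The 4 members that were higher in untreated resident cells include 2 that are not core proteins. Rps4l, a transcribed processed pseudogene by GENCODE and a copy of Rps4x, read 333, 332 and 203 in resident and 119 and 94.1 in BMDM libraries (1.41 ± 0.24, adjusted p = 0.000353). Rps19bp1 read 1089.8, 921 and 809.7 and 615 and 629.7 (0.58 ± 0.16, adjusted p = 0.00665). Rpl34, a large-subunit protein, read 1641, 1647 and 1779 and 1327 and 1141 (0.46 ± 0.11, adjusted p = 0.00392), and Rpl24 was higher by 0.36 ± 0.14, adjusted p = 0.0382. Rpl24 lost its call when any of 6 single libraries was left out, namely resident untreated replicate 1 or 2 or any of the 4 BMDM libraries, and its estimate was −0.05 under quantile normalization. With equal library totals 51 members were lower and 2 higher, with quantile normalization 68 and 3, and without the first replicate of both resident groups 39 and 6. The median of all genes was −0.08 with equal totals and −0.18 with quantile normalization. The fit with the term for Y-linked transcripts gave 44 lower and 4 higher. Without resident untreated replicate 3 there were 7 higher, and without BMDM untreated replicate 2 there were 2.

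With LPS the deposited scale put 43 members lower and 3 higher in resident cells than in BMDM, against 34.5% and 36.7% of all genes (71.3% in either direction). The median member was −0.28 and the median gene 0.03. Rps27l led at −1.07 ± 0.10, followed by Rpl31, a protein at the rim of the exit tunnel, with 11572, 11524 and 10215 in resident and 21721 and 20642 in BMDM libraries (−0.93 ± 0.10, adjusted p = 1.64e-05). Rpl39 read 5615, 5168 and 4385 and 9776 and 9057 (−0.90 ± 0.11, adjusted p = 3.38e-05). Rpl36a was −0.86 ± 0.10 and Rps27a −0.85 ± 0.11, and in all 5 the groups were apart. LPS-treated resident and BMDM libraries did not overlap for 57 of 87 members, against 82.4% of all genes tested. Rps4l (1.40 ± 0.24, adjusted p = 0.000373), Rps19bp1 (0.39 ± 0.16, adjusted p = 0.0443) and Rps2, a protein near the messenger's entry (0.27 ± 0.10, adjusted p = 0.0328), were higher. The family's direction here depends on the scaling: with equal totals 21 members were higher and 11 lower with a median of 0.05, and with quantile normalization 16 and 12 with a median of −0.01. The median of all genes was 0.35 and −0.09 there. Without BMDM LPS replicate 1 the deposited scale gave 25 lower and 1 higher, and 1 was also higher without resident LPS replicate 1, BMDM LPS replicate 2 or either untreated BMDM library. The 5 largest falls stayed lower under each scaling, from −0.51 to −1.14 over all alternatives. Of the 24 members lower before LPS, 23 were also lower with LPS, which is 95.8% of the first and 53.5% of the second list. Of all genes, 64.5% of those lower before LPS were also lower with it, which is 60.9% of those lower with LPS, so sharing between the treatments was common in the whole table.

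Departures from the median member of the same library do not depend on the scaling factor. Relative to it, LPS changed 0 of 87 members in resident cells (4.49% of all genes higher, 2.33% lower, 6.82% in either direction) and raised 4 in BMDM (24.9%, 25.9% and 50.8%), among them Rpl24 (0.85 ± 0.12, adjusted p = 0.00011), Rpl27 (0.37 ± 0.12, adjusted p = 0.0217) and Rps24 (0.30 ± 0.10, adjusted p = 0.0302). Rps24, a small-subunit protein, read 14839 and 15188 in untreated BMDM and 19363 and 18427 with LPS. There were 7 such members without resident LPS replicate 3, 2 without BMDM untreated replicate 1, and 1 without any of the other 3 BMDM libraries. Between untreated origins 27 members were higher in resident cells and 12 lower (43.4%, 22.8% and 66.1% of all genes), and with LPS 13 and 19 (41.8%, 23.8% and 65.5%). Untreated, the counts were 11 and 6 without BMDM untreated replicate 1, and 8 and 6 without replicate 2. With LPS they were 6 and 10 without BMDM LPS replicate 1, and 4 and 11 without replicate 2.

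Many departures were shared between the treatments. The estimates for the treatments use no library in common. The calls are not independent, because the fit took each gene's residual variance from the libraries of all groups. All 13 members called higher with LPS were among the 27 higher before it, and 11 of the 12 lower before it were lower with LPS. These are 48.1% of the members higher before LPS and 57.9% of those lower with it. Of all genes on the same scale, 67.1% of those higher before LPS stayed higher with it (69.7% of those higher with LPS), and 57.7% of those lower before it stayed lower (55.2% of those lower with LPS). The shared higher group includes Rpl13a, Rpl18, Rpl34, Rpl36, Rpl4, Rpl7a, Rplp2, Rps2, Rps27, Rps4l and Rps19bp1. The shared lower group holds Rpl12, Rpl22, Rpl23, Rpl31, Rpl35, Rpl36a, Rpl39, Rps25, Rps26, Rps27a and Rps27l. Rpl24 was the 1 member called in opposite directions, at 0.55 ± 0.11, adjusted p = 0.000898 untreated and −0.30 ± 0.11, adjusted p = 0.0315 with LPS. Rpl18, a large-subunit protein, read 14126, 14418 and 12599 and 11797 and 11793 untreated in resident and BMDM libraries, and departed by 0.41 ± 0.09, adjusted p = 0.00268.

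**Figure D4:**
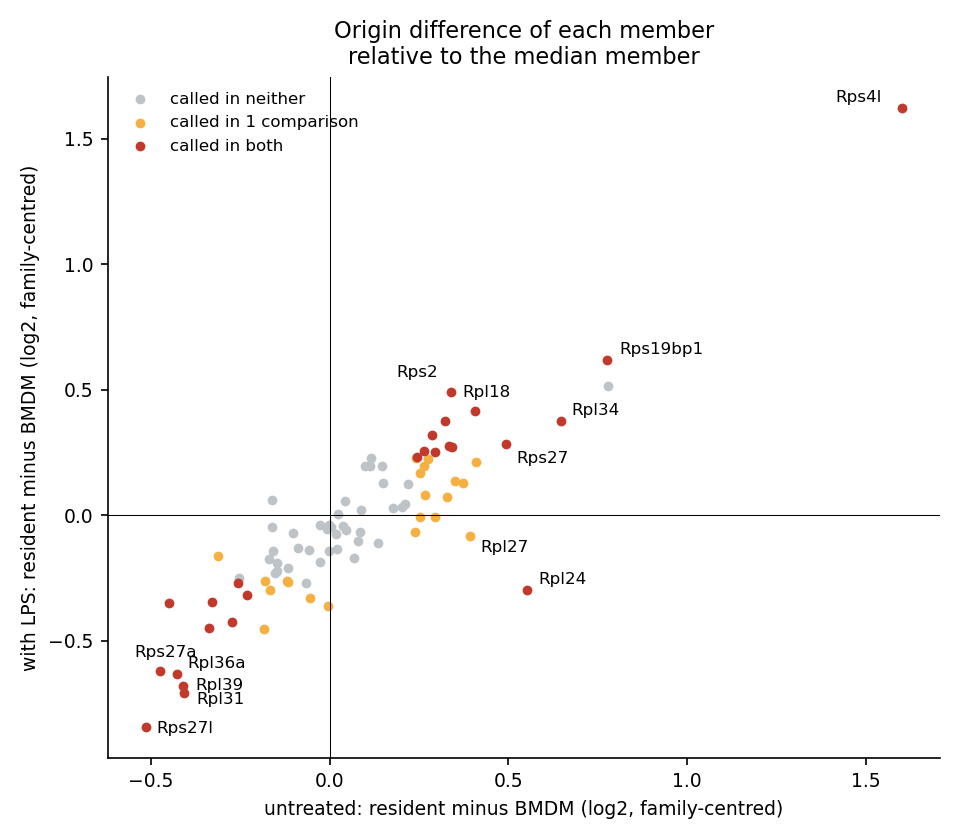
Log2 difference between resident cells and BMDM relative to the median member, untreated on the x axis and with LPS on the y axis, 1 point for each member but Rpl39l, which read 20 or less. Points called in both lie in the same direction except Rpl24, and Rps4l stands at 1.60 and 1.62.

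Against BMDM, the stalk proteins were lower or not called in resident cells on the deposited scale. Rplp0 and Rplp2 were −0.34 ± 0.13 and 0.15 ± 0.15 between untreated origins, of which only Rplp0 was called (adjusted p = 0.0374, limma). With LPS both Rplp0 (−0.45 ± 0.13, adjusted p = 0.0105) and Rplp1 (−0.50 ± 0.19, adjusted p = 0.0387) were lower in resident cells, and Rplp2 was not called (0.05 ± 0.15, adjusted p = 0.796). Relative to the median member Rplp2 was higher at 0.34 ± 0.10, adjusted p = 0.00961 untreated and 0.27 ± 0.10, adjusted p = 0.0307 with LPS, and the other 2 were not called. Rpsa, also known as a laminin receptor, read 21674, 23162 and 21434 in untreated resident and 23421 and 23151 in untreated BMDM libraries, and was called in no comparison. Rps3, at the messenger's entry, read 23376, 23275 and 21129 and 23396 and 24767, with no call either. Rps6, the substrate of the S6 kinases, read 19656, 19661 and 18251 and 18104 and 18353 and was called only relative to the median member (0.26 ± 0.10, adjusted p = 0.0294).

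Genes mutated in Diamond-Blackfan anaemia, an inherited failure of red cell production, include Rps19, Rps26, Rpl5 and Rpl11. Rps19 read 8201, 8798 and 8133 in untreated resident and 10616 and 10741 in untreated BMDM libraries (−0.35 ± 0.09, adjusted p = 0.00598), lower in resident cells. Rps26, at the messenger's exit, read 5211, 5833 and 5135 and 7546 and 7898 (−0.52 ± 0.10, adjusted p = 0.000905) and stayed lower relative to the median member (−0.33 ± 0.09, adjusted p = 0.00710). Rpl5, which with Rpl11 and the 5S RNA binds Mdm2, was −0.34 ± 0.10, adjusted p = 0.0131 untreated and −0.41 ± 0.10 with LPS. Rpl11 was −0.25 ± 0.11 untreated, without a call, and −0.36 ± 0.11, adjusted p = 0.0125 with LPS. Relative to the median member Rps19, Rpl5 and Rpl11 were called in no comparison. Rpl13a, known for silencing inflammatory messengers in interferon-treated myeloid cells, read 23422, 24906 and 21800.1 and 24285, 22100.5 and 18994 in resident cells without and with LPS, and 21249.7 and 21349 and 20149.8 and 18950.2 in BMDM. It was higher in resident cells relative to the median member (0.32 ± 0.10, adjusted p = 0.0109 untreated and 0.38 ± 0.10, adjusted p = 0.00474 with LPS), and not called on the deposited scale.

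Some paralog pairs were balanced differently in the 2 origins. A pair's ratio within a library does not depend on the scaling factor, and it is given per kb as a percentage of the partner. Rps27l, a paralog of Rps27 that p53 is known to induce, stood at 24.4, 24.0 and 25.03% of Rps27 in untreated resident libraries and 22.1, 22.2 and 25.9% with LPS. In BMDM it stood at 48.4 and 49.9% untreated and 51.5 and 50.5% with LPS. Every BMDM library was above every resident library. Rpl36al stood at 153, 115 and 114% of Rpl36a in untreated resident and 148, 119 and 116% in LPS-treated resident libraries, against 71.2 and 70.2% and 70.7 and 71.0% in BMDM. Per kb the more abundant of the 2 genes was thus Rpl36al in resident cells and Rpl36a in BMDM. The highest value of each resident group was that of the replicate with Y-linked transcripts, and the other resident libraries still lay above all BMDM libraries.

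Some of the other paralogs differed as well. Rps4l stood at 2.58, 2.70 and 1.66% of Rps4x in untreated resident and 2.54, 2.52 and 2.40% in LPS-treated resident libraries, and at 0.686 and 0.563% and 0.765 and 0.594% in BMDM. Rpl22l1 stood at 32.3, 31.6 and 34.1% of Rpl22 untreated and 34.5, 33.5 and 37.7% with LPS in resident libraries, and at 23.1 and 26.8% and 31.3 and 31.8% in BMDM. Only the untreated BMDM libraries were well below the others. Rpl7l1 stood at 18.2, 16.5 and 18.5% of Rpl7 in untreated resident libraries and 21.2 and 20.7% in untreated BMDM. With LPS it stood at 17.5, 17.7 and 20.8% in resident and 17.5 and 18.2% in BMDM libraries, and these ranges overlapped. An exact 2-sided permutation test of the origin within each treatment (100 splits, smallest p 0.01) gave p = 0.01 for Rps27l, Rpl36al, Rps4l and Rpl22l1, adjusted to 0.015 over 6 pairs. The mean log2 differences of the ratio, resident minus BMDM, were −1.07, 0.84, 1.86 and 0.27 in that order. The same exact permutation test gave p = 0.28 for Rpl7l1 and 0.14 for Rpl39l (adjusted 0.28 and 0.168). No 50-base word is shared within these 6 pairs, but 98.6% of the words of Rps27 and 85.5% of those of Rpl36a occur in other transcripts, against 22.4% and 63.3% for their partners. The retrocopy Rps27rt shares 91.1% of its words with Rps27 itself and its values are therefore uncertain.

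**Figure D5:**
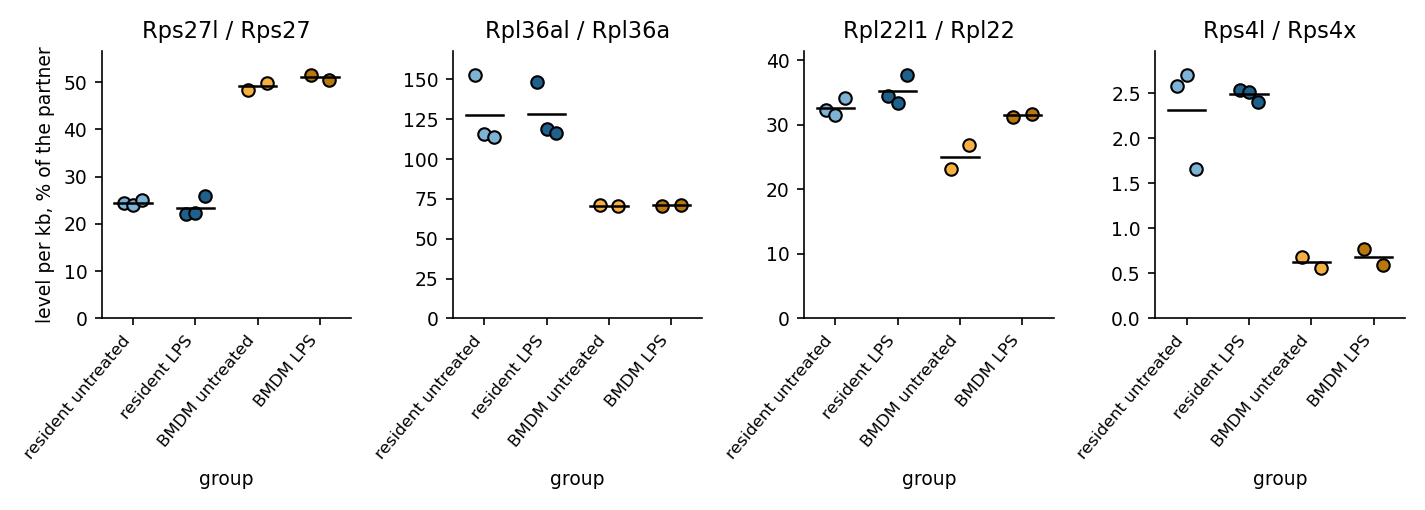
Level per kb of 4 paralogs as a percentage of their partner in each library (points; bars are group means). Rps27l lies at 22.1 to 25.9% in resident and 48.4 to 51.5% in BMDM libraries, Rpl36al and Rps4l lie higher in resident libraries, and Rpl22l1 is lowest in untreated BMDM.

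Some proteins of the ribosome have other symbols. Fau, which carries the small-subunit protein S30, and Rack1, a scaffold on the small subunit, were not called after LPS in either origin. Rack1 read 21062 ± 2226 (SD, n = 3) in resident cells with LPS and 26216 ± 100 (SD, n = 2) in BMDM, and was lower in the former (−0.32 ± 0.12, adjusted p = 0.0299). Elongation factors and other messengers of the TOP class (12 genes) gave 0 calls in resident cells with LPS, and 3 higher and 1 lower in BMDM, below the shares of all genes given above. Pabpc1, the poly(A)-binding protein, rose by 0.67 ± 0.11, adjusted p = 0.000303 and Eef1e1, a scaffold of the transfer RNA synthetase complex and no elongation factor, by 0.74 ± 0.12, adjusted p = 0.000315 in BMDM, and Eef1d fell (−0.25 ± 0.10, adjusted p = 0.0449). The elongation factors Eef1a1 (0.23 ± 0.22) and Eef2 (−0.15 ± 0.13) were not called. Between untreated origins 2 of the 12 were higher in resident cells and 3 lower (16.7% and 25%), against 39.2% and 32.6% of all genes. Both shares are smaller than those of all genes. Nap1l1, a histone chaperone, and Tpt1 were lowest at −0.87 ± 0.10 and −0.71 ± 0.16.

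Genes that build ribosomes were called in both directions. Of 85 biogenesis genes, 21 rose and 30 fell with LPS in BMDM, and 5 rose and 0 fell in resident cells. The shares were 24.7% and 35.3% in BMDM, where 28.3% and 29.5% of all genes were called, and 5.88% and 0% in resident cells, where 7.36% and 5.57% were. These counts are near those of all genes except for the absence of falls in resident cells. Sbds, which frees the large subunit of Eif6, read 1885 ± 77.7 in untreated BMDM and 10783 ± 25.5 with LPS (SD, n = 2; 2.52 ± 0.13, adjusted p = 6.8e-08). Rcl1, a factor of 18S RNA maturation, rose by 2.72 ± 0.11, adjusted p = 9.27e-09. Polr1b, a subunit of RNA polymerase I, went from 471 ± 6.23 to 133 ± 6.81 (−1.81 ± 0.13, adjusted p = 1.08e-06), and Rrp1b fell as well (−1.95 ± 0.22, adjusted p = 3.25e-05). In resident cells Sbds rose by 0.60 ± 0.11, adjusted p = 0.00604 and Rcl1 by 0.48 ± 0.09, adjusted p = 0.00724. The LPS change differed between origins for 39 of the 85 genes, 13 with a higher and 26 with a lower change in BMDM (45.9% of the list and 41.8% of all genes), among them Rcl1 (2.24 ± 0.14) and Polr1b (−2.06 ± 0.17). Between origins 25 were higher and 17 lower in untreated resident cells, led by Eif6 (1.78 ± 0.12) and Nat10 (−1.05 ± 0.09), and 46 were higher and 19 lower with LPS. These are 29.4% and 20.0% untreated, against 39.2% and 32.6% of all genes, and 54.1% and 22.4% with LPS, against 36.7% and 34.5%. Of the 12 genes of the cell cycle list, 0 rose and 8 fell in BMDM with LPS (66.7% lower, against 29.5% of all genes). The list took 0.112 to 0.122% of untreated BMDM values and 0.0618 to 0.0620% with LPS. The part of the cell cycle in the changes of the biogenesis genes was not tested.

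Among 18 genes that control mTORC1 and TOP messengers, 4 rose and 9 fell in BMDM with LPS, and 2 rose and 1 fell in resident cells. In BMDM 28.3% of all genes were called higher and 29.5% lower, and in resident cells 7.36% and 5.57%. Larp1, which binds the TOP motif, read 3111 ± 55.5 in untreated BMDM and 16299.8 ± 167 with LPS (SD, n = 2; 2.39 ± 0.09, adjusted p = 8.8e-09), and rose in resident cells by 0.41 ± 0.08, adjusted p = 0.00771. Its LPS change was larger in BMDM (1.97 ± 0.12, adjusted p = 5.98e-07). Of the sestrins, which restrain mTORC1 when amino acids or oxidants signal stress, Sesn3 rose (2.76 ± 0.26, adjusted p = 7.28e-06) and Sesn1 fell (−4.21 ± 0.14, adjusted p = 2.67e-09) in BMDM. Akt1s1, a subunit that inhibits mTORC1, fell in resident cells (−0.63 ± 0.10, adjusted p = 0.00445), and Mtor itself rose there (0.28 ± 0.07, adjusted p = 0.0272). Between untreated origins 8 of the 18 were higher in resident cells and 5 lower (39.2% and 32.6% of all genes), with Ddit4, an mTORC1 inhibitor, at 3.01 ± 0.24 and Deptor, another inhibitor, at −3.07 ± 0.22. Of 9 chaperones that escort new ribosomal proteins, 0 were called in resident cells, and 2 rose and 3 fell in BMDM with LPS, among them Ipo5, an importin, at 0.42 ± 0.10 and Grwd1, the chaperone of Rpl3, at −0.86 ± 0.11. Of the 8 ribosomal protein kinases left out of the members, 3 rose in resident cells, and 4 rose and 2 fell in BMDM, led by Rps6ka2 (1.37 ± 0.15) and Rps6ka1 (−1.56 ± 0.18).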

How the data were processed

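The deposited table holds signal values, one row per library. As tested on the table, the authors scaled read counts by a library factor and set a floor of 1: values below 1000 steps were multiples of a library's step within 0.02. HISAT 0.1.7 and mm10 are named per the submitters' processing notes. The annotation and the read counter are not stated in the labels or the file. Recovered reads take each step as 1 read. Groups came from the labels, and all 10 libraries were used. Log2 of the value plus 1 was fitted with limma 3.58.1 in R 4.3.3 (4 groups, 6 residual degrees of freedom, trended variances), keeping genes that reached 10 in 2 or more libraries (13755 tested, 54 left out). P-values were adjusted by Benjamini and Hochberg within each of 5 comparisons, and called at an adjusted p under 0.05. A further fit used values minus the median of 80 members, leaving out 6 paralogs and Rps19bp1 and keeping 3 retrocopies. Errors beside a log2 change are standard errors. The fit was run on simulated data with known changes in the LPS comparisons only, and the outcome is not given here. Library factors cancelled in that simulation, so it cannot test the scaling. Alternatives covered scaling, pseudocount, filter, moderation and leaving out libraries. Transcript lengths and gene types came from GENCODE M21, and starts from RefSeq (GRCm38.p6). Figures used Python 3.11.15 and matplotlib 3.10.9.

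The members and gene lists were chosen with earlier results of these data known. Genes named are both members of each paralog pair, a set of 12 members (the stalk proteins, Rpsa, Rps19bp1, Rps3, Rps6, Rps19, Rps26, Rpl5, Rpl11 and Rpl13a), the 5 largest called rises and falls in each comparison of both fits, and up to 2 called rises and falls of each list. Windows follow the 3 most abundant members per subunit and the pairs. Rpl4, Rpl30, Eef1a1, Eef2, Csf1r, Cd163 and the windows of Rpl24, Rpl27 and Rpl15 were chosen after their values were seen. Single values of some genes that enter the counts are not reported here. The pair test, the motif counts, voom, centring and the term for Y-linked transcripts were added after the data were seen.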

Additional observations from a re-analysis of the deposited data

Results flagged for a closer look

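Groups held 2 or 3 libraries, so no library was tested as an outlier. The change of 2 members after LPS differed between the origins by the interaction term of limma. For Rpl24 the log2 change in BMDM minus that in resident cells was 0.88 ± 0.20, adjusted p = 0.00486, and its values in untreated BMDM (9285 and 8877) were the lowest of the 10 libraries. For Rpl27 the same difference was 0.51 ± 0.14, adjusted p = 0.0151, and it turned to −0.18 under quantile normalization. Rpl24 kept a positive difference under all 27 alternatives, from 0.16 to 1.00, and missed the threshold under quantile normalization and in the test against a minimum change. Of its 50-base words, 81.7% occur in transcripts of other genes, as do 64.1% of those of Rpl27, and the part of reads from such copies in these differences was not tested.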

How the results depend on the processing

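Values under other settings are given here for the counts of members called and their median log2 change. The share of all genes called under each setting is not given here, so such a count alone is no result about the members. The deposited scaling gave 0 higher and 0 lower after LPS in resident cells, 5 and 0 in BMDM, 4 and 24 between untreated origins, 3 and 43 between LPS-treated origins, and 2 and 0 for the difference of responses. For LPS in resident cells, equal library totals gave 0 higher and 7 lower (median −0.18) and equal totals without Rn45s gave 0 higher and 9 lower (median −0.18). Here equal totals without the members gave 0 higher and 9 lower (median −0.19) and quantile normalization gave 0 higher and 11 lower (median −0.18). There a term for Y-linked transcripts gave 0 higher and 2 lower (median −0.057) and leaving out replicate 1 of both resident groups gave 0 higher and 1 lower (median −0.12). For LPS in BMDM, array weights gave 22 higher and 2 lower (median 0.071) and equal library totals gave 1 higher and 81 lower (median −0.54). Here equal totals without Rn45s gave 0 higher and 82 lower (median −0.57) and equal totals without the members gave 0 higher and 81 lower (median −0.56). There limma without trend gave 2 higher and 0 lower (median 0.071) and the test against a minimum log2 change of 1 gave 0 higher and 0 lower (median 0.071). Likewise a fit of only the groups compared gave 26 higher and 4 lower (median 0.071) and quantile normalization gave 0 higher and 76 lower (median −0.74). In the same comparison, a term for Y-linked transcripts gave 11 higher and 1 lower (median 0.071) and leaving out replicate 1 of both resident groups gave 12 higher and 1 lower (median 0.071). Without 1 library at a time the range was called higher 1 to 8. Between the untreated origins, array weights gave 10 higher and 36 lower (median −0.11) and centring on the median member gave 27 higher and 12 lower (median 0.046). Here equal library totals gave 2 higher and 51 lower (median −0.31) and equal totals without Rn45s gave 2 higher and 52 lower (median −0.34). There equal totals without the members gave 2 higher and 51 lower (median −0.32) and the test against a minimum log2 change of 1 gave 0 higher and 0 lower (median −0.15). Likewise quantile normalization gave 3 higher and 68 lower (median −0.53) and a term for Y-linked transcripts gave 4 higher and 44 lower (median −0.19). In the same comparison, leaving out replicate 1 of both resident groups gave 6 higher and 39 lower (median −0.16). Without 1 library at a time the range was called higher 2 to 7. Between the LPS-treated origins, centring on the median member gave 13 higher and 19 lower (median −0.054) and equal library totals gave 21 higher and 11 lower (median 0.045). Here equal totals without Rn45s gave 24 higher and 10 lower (median 0.057) and equal totals without the members gave 21 higher and 10 lower (median 0.046). There the test against a minimum log2 change of 1 gave 0 higher and 0 lower (median −0.28) and quantile normalization gave 16 higher and 12 lower (median −0.0083). Without 1 library at a time the range was called higher 1 to 3, called lower 25 to 56. For the difference of responses, array weights gave 20 higher and 0 lower (median 0.18) and equal library totals gave 1 higher and 42 lower (median −0.37). Here equal totals without Rn45s gave 1 higher and 47 lower (median −0.40) and equal totals without the members gave 1 higher and 43 lower (median −0.38). There the test against a minimum log2 change of 1 gave 0 higher and 0 lower (median 0.12) and quantile normalization gave 0 higher and 63 lower (median −0.55). Likewise a term for Y-linked transcripts gave 7 higher and 0 lower (median 0.12) and leaving out replicate 1 of both resident groups gave 13 higher and 0 lower (median 0.19). Without 1 library at a time the range was called higher 1 to 11, median 0.036 to 0.24. Counts of departures from the median member moved as follows. In LPS against untreated in BMDM, higher, 4 against 1 to 7 leaving out 1 library. In LPS against untreated in BMDM, lower, 0 against 1 centred on the mean. In resident against BMDM untreated, higher, 27 against 8 to 28 leaving out 1 library. In resident against BMDM untreated, lower, 12 against 19 centred on the mean and 6 to 13 leaving out 1 library. In resident against BMDM with LPS, higher, 13 against 20 centred on the mean and 4 to 15 leaving out 1 library. In resident against BMDM with LPS, lower, 19 against 10 to 21 leaving out 1 library. In the difference of the LPS responses, higher, 2 against 1 centred on the mean and 1 centred on the structural genes and 1 to 4 leaving out 1 library. In the difference of the LPS responses, lower, 0 against 1 centred on the mean. The log2 change turned sign for Rpl15, LPS vs untreated in BMDM, −0.61 (quantile normalization), −0.33 (equal totals), −0.37 (equal totals without Rn45s), −0.35 (equal totals without the members). The log2 change turned sign for Rpl22l1, LPS vs untreated in BMDM, −0.11 (quantile normalization), −0.30 (equal totals), −0.33 (equal totals without Rn45s), −0.32 (equal totals without the members). The log2 change turned sign for Rpl24, resident vs BMDM untreated, −0.048 (quantile normalization). The log2 change turned sign for Rpl27, LPS vs untreated in BMDM, −0.45 (quantile normalization), −0.22 (equal totals), −0.25 (equal totals without Rn45s), −0.23 (equal totals without the members). The log2 change turned sign for Rpl27, difference of responses, −0.18 (quantile normalization), −0.017 (equal totals without Rn45s). The cause of these shifts was not tested, but scaling to equal totals moved the median of all genes in BMDM after LPS by −0.59 by its construction. Pseudocounts of 0.1 and 10, both filters, recomputed size factors, robust moderation and voom moved no count by over 1.5 times. The mean share of the library moved most against its spread in untreated BMDM, from 3.94 to 4.04% without Rn45s, which is as much as the SD between replicates (0.10). The test against a minimum log2 change of 1 called 0 members in every comparison. Both the term for Y-linked transcripts and centring on the structural genes alone were added after the data were seen. No paired analysis was made, because the labels number the libraries in 1 run and give no replicate numbers shared by groups. Whether the resident libraries are paired in replicate order was not tested. Replicate 1 of each resident group alone held Y-linked transcripts. Megakaryocyte markers took 0.0577, 0.203 and 0.152% of untreated resident values and 0.0711, 0.206 and 0.131% with LPS, in replicate order. The calls for LPS in resident cells take no account of such pairs. The planned count tests with edgeR were not run, because the deposited values are no counts. Groups of 2 and 3 libraries limit the precision.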

Other observations

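The 7 ribosomal pseudogene symbols that the rule leaves out (those ending in "-ps" and a number) took 0.0312 to 0.0339% of the values in untreated resident libraries and 0.0392 to 0.0394% in untreated BMDM. With LPS their share was 0.0248 to 0.0312% in resident libraries and 0.0269 to 0.0280% in BMDM. The order of the groups was that of the members themselves, with the highest share in untreated BMDM.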
